A study of Mus musculus with 36 samples.

Results

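The shores of CpG-dense DNA were read in the livers of 24 mice as fixed windows of 500 bp. A shore window was an autosomal window with 5 to 14 CpGs that lay wholly within 2 kb of the edge of a dense window, meaning a window with 25 or more CpGs, and that held at least 30 counts in each of the 24 animals. Of 69797 windows that met the CpG and distance criteria, 3396 fell below the count minimum and 66401 remained, out of 4254058 autosomal windows with a CpG and 1456902 windows tested. The shore windows flanked 17419 of the 18133 runs of adjacent dense windows, with a median of 4 shore windows per run, and held 542261 CpGs, 2.87% of the autosomal CpGs of the table. Whole-genome bisulfite sequencing, in which unmethylated cytosines are read as thymine, gave for every CpG and animal the number of methylated and the number of unmethylated reads. The animals were 3 males and 3 females each of the inbred strains B6 (C57BL/6N) and C3 (C3H/HeN) and of their reciprocal hybrids B6C3F1 (B6 dam, C3 sire) and C3B6F1 (C3 dam, B6 sire). The males and females of B6 and C3 were the sires and the dams of the F1 animals. The dams had borne and nursed pups, whereas the F1 females were virgin, and all animals were sampled at the same age. Sires against dams therefore joins sex with breeding, and no virgin B6 or C3 female is analysed here. The labels do not tie a parent to its offspring, so animals were compared as groups.

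CpG islands are stretches of mammalian DNA that keep a high density of CpGs, and most of those at promoters are free of methylation in every tissue. Away from islands most CpGs are methylated, and a shore is the flank over which the low level of the island gives way to the high level of the surrounding genome. Shores are known as places where methylation differs between tissues and cell types. At a promoter, one shore lies upstream of the transcription start site and the other lies downstream, often in the first intron.

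Total counts over autosomal CpGs ranged from 365740739 to 619888157 per animal, and the mean count of a shore window from 146 to 258. The liver label was checked on the methylation within 1 kb of start sites of marker genes. At 6 hepatocyte genes, among them Alb and Apoa1, the median over animals lay between 20.6% and 52.4%. It lay between 69.8% and 86.6% at 6 leukocyte genes, between 68.2% and 76.1% at 3 endothelial genes and between 68.9% and 74.8% at 2 heart muscle genes. The 2 brain genes gave 47.0% at Gfap and 2.75% at Snap25. Bulk DNA gives the mean over all cells of the liver, so a partial methylation of each cell and a mixture of methylated and unmethylated cells cannot be told apart.

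Shore windows carried moderate sequence features of their own. They held 8.17 CpGs on average at a G+C content of 47.2% and a CpG observed-to-expected ratio of 0.311, against 7.07 CpGs, 45.3% and 0.290 in distant windows, which hold 5 to 14 CpGs and lie over 10 kb from a dense window (n = 1116007). Of the shore windows 35.5% lay within 1 kb of a protein-coding start site, against 2.15% of distant windows. Exons held 23.2% of the shore windows, introns 39.5% and intergenic DNA 37.4%. A single-nucleotide variant (SNV) from the deposited list for B6, C3 and mm9 lay in 20.6% of them. Listed positions were not required to differ between B6 and C3.

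Stretches of 7 windows are printed because they carry differences that the later comparisons turn on, and they show where in a shore the CpGs lie. Each is 200 bp of mouse DNA of build mm9, plus strand, and the CpGs measured in the table are in capitals. The first 4 stretches differed between B6 and C3. They lie beside Cnot8 at chr11:57916742-57916941, in an intron of Adal at chr2:120967299-120967498, in an intron of Fam129c at chr8:74127044-74127243 and in an intron of Dusp12 at chr1:172813509-172813708. The last 3 differed between sires and dams. They lie upstream of Ube2f at chr1:93145001-93145200, in Elovl3 at chr19:46208529-46208728 and in an intron of Cyp2u1 at chr3:131004260-131004459. A CG left in lower case was not in the table.
Cnot8: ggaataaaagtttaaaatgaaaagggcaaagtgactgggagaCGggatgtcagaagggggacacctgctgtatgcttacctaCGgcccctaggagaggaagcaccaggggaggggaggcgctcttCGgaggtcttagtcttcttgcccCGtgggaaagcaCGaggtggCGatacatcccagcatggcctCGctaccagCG
Adal: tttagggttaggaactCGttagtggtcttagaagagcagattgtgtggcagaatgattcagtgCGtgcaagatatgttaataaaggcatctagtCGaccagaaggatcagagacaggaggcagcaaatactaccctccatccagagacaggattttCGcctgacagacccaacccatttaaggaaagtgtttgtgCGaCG
Fam129c: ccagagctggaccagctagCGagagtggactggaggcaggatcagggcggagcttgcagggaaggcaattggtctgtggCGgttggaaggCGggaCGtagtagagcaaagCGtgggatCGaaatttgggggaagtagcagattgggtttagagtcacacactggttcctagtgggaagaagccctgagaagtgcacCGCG
Dusp12: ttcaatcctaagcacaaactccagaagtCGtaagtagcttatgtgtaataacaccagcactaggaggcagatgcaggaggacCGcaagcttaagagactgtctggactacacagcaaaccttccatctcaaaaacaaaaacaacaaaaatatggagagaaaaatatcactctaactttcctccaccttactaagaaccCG
Ube2f: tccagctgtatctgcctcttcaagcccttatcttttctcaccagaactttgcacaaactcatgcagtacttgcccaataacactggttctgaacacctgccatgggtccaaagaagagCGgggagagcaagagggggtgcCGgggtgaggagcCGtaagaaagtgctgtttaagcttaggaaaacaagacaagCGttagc
Elovl3: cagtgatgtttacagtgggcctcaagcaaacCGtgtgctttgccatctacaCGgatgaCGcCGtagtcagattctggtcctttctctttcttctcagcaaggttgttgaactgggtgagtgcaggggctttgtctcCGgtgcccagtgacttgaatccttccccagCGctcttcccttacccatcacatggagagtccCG
Cyp2u1: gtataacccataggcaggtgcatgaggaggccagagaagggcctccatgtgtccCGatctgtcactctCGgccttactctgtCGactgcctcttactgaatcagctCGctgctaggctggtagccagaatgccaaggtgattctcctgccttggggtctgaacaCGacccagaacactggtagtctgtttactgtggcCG
All measured CpGs of each printed stretch differed in the same direction, which the choice of windows with large differences favours. All 8 measured CpGs of the Cnot8 stretch were higher in B6, by 25.5 to 81.2 percentage points, and all 6 of the Adal stretch were higher in B6, by 48.9 to 62.5 points. The 8 CpGs of the Fam129c stretch read 2.45% to 9.38% in B6 and 50.3% to 86.8% in C3. In the Dusp12 stretch the 3 CpGs read 17.6% to 24.5% in B6 and 96.3% to 100% in C3. The 4 CpGs of the Ube2f stretch were higher in sires, by 39.9 to 44.8 points. The 7 CpGs of the Elovl3 stretch and the 6 of the Cyp2u1 stretch were higher in dams, by 26.0 to 56.9 and by 29.1 to 48.7 points.

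Methylation rose steeply along the shore. The first comparison asked how far from a dense window the liver reaches the level of the rest of the genome. Weighted methylation, the share of methylated reads over all reads of a class, was 36.0% ± 0.597 (SD, n = 24 animals) in the windows within 500 bp of the dense window (19062 windows) and 59.0% ± 0.493 from 500 to 1000 bp (18152 windows). It was 72.5% ± 0.412 from 1000 to 1500 bp (15186 windows) and 76.2% ± 0.435 from 1500 to 2000 bp (14001 windows). The step from the nearest to the farthest 500 bp was 40.1 ± 0.385 points and lay between 39.3 and 40.8 points in the 24 animals (sign-flip permutation test over animals, two-sided p = 1e-05, the smallest that 100000 resamples can give). Over the whole shore the level was 58.0% ± 0.509, against 81.7% ± 0.413 in distant windows and 12.6% ± 0.802 in dense windows. Distant windows were higher than shore windows in 24 of 24 animals, by 23.7 ± 0.431 points (sign-flip permutation test, p = 1e-05).

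The lower level of shores was present at each CpG density. Windows with 5 to 6 CpGs read 68.7% ± 0.493 in the shore and 81.7% ± 0.467 at a distance, and those with 7 to 9 CpGs read 61.7% ± 0.460 and 82.0% ± 0.400. Windows with 10 to 14 CpGs read 48.3% ± 0.594 in the shore and 81.2% ± 0.359 at a distance (n = 24 animals each). Distant windows thus varied by less than 1 point over this range of CpG numbers, whereas shore windows fell with CpG number. Within the shore, the nearest windows held 9.44 CpGs on average and the farthest 7.47, so that distance and CpG density are partly joined.

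Single shore windows ranged over almost the whole scale. The median window, each taken as its mean over the 24 animals, read 73.1%, with quartiles of 30.6% and 88.7%. Of all shore windows 11.3% lay below 10%, 39.2% between 20% and 80% and 42.2% above 80%. Of the distant windows 0.399% lay below 10%, 28.8% between 20% and 80% and 69.9% above 80%. Within 500 bp of the dense window 26.8% of the windows lay below 10% and 19.6% above 80%, and from 1500 to 2000 bp the shares were 2.06% and 62.3%. Animals were alike: the median SD of a shore window over the 24 animals was 3.27 points, against 2.89 in distant windows, and 482 of the shore windows had an SD above 10 points.

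The rise depended on the level of the dense run. Beside runs below 10% methylation (50793 windows) the shore rose from 24.1% ± 0.543 to 74.5% ± 0.432 over the 4 distance classes, a step of 50.4 ± 0.452 points present in 24 of 24 animals (sign-flip permutation p = 1e-05). Beside runs at 80% or more (9584 windows) it fell instead, from 89.0% ± 0.387 to 84.4% ± 0.389, a step of -4.63 ± 0.133 points that was negative in 24 of 24 animals (sign-flip permutation p = 1e-05). The runs at 10 to 80% were flanked by 6024 windows at 70.8% ± 0.692. The run and its shore are adjacent DNA of the same libraries, and the classes differed in place as well: 43.3% of the windows beside low runs and 3.88% of those beside high runs lay within 1 kb of a start site.

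Read per CpG in bins of 100 bp, the shore of low runs started at 9.02% ± 0.349 in the first 100 bp and reached 45.7% ± 0.514 at 401 to 500 bp. In the 100 bp after that, where the CpGs come from the next window, which has to hold 5 to 14 CpGs of its own, it was lower, at 41.9% ± 0.509. It then reached 63.8% ± 0.443 at 901 to 1000 bp and 75.4% ± 0.431 at 1901 to 2000 bp. The shore of high runs moved from 90.9% ± 0.416 to 84.2% ± 0.500 over the same reach. At 2 kb both remained on either side of the 81.7% of distant windows.

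Shores upstream of a start site were more methylated than those downstream. Runs below 10% with protein-coding start sites on 1 strand only, in the run or within 500 bp of it, were compared. Within 500 bp the upstream shore read 28.2% ± 0.742 and the downstream shore 20.3% ± 0.461. The difference was 7.90 ± 0.445 points there, 10.8 ± 0.316 points from 500 to 1000 bp, 5.98 ± 0.307 from 1000 to 1500 bp and 2.74 ± 0.237 from 1500 to 2000 bp. It was positive in 24 of 24 animals at each distance (sign-flip permutation test, p = 1e-05 for each, 4 comparisons). In the 100 bp next to the dense window the values were 9.85% ± 0.471 upstream and 7.74% ± 0.291 downstream, and at 401 to 500 bp they were 53.4% ± 0.580 and 39.8% ± 0.579. The shore of runs below 10% without a protein-coding start site rose more slowly, from 27.1% ± 0.498 within 500 bp to 67.1% ± 0.603 from 1500 to 2000 bp.

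**Figure D1:**
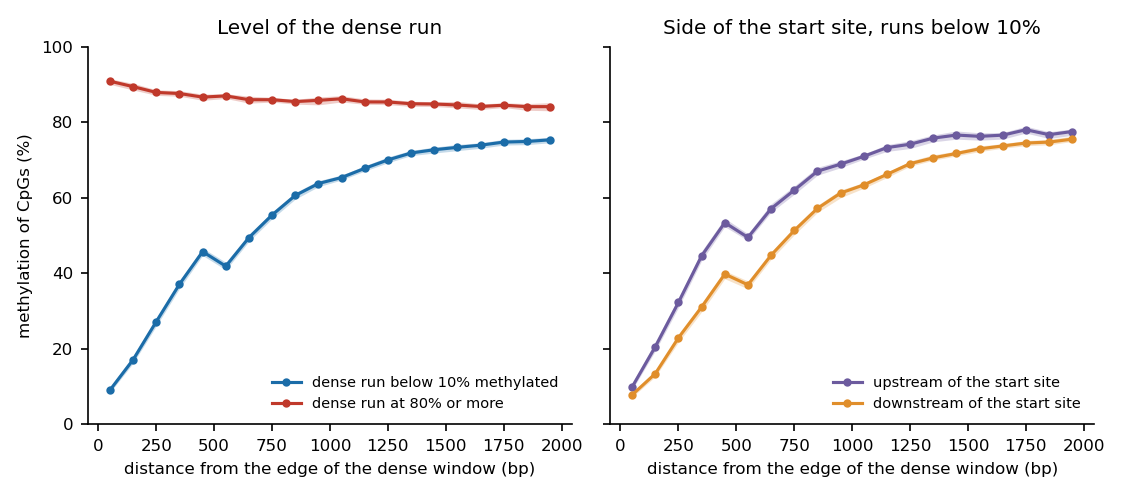
Methylation of CpGs (%) against distance from the edge of the dense window (bp, bins of 100 bp). Points are means and bands the range over 24 animals. Left, shores of dense runs below 10% climb from 9.02% to 75.4% while those of runs at 80% or more decline from 90.9% to 84.2%. Right, for runs below 10% with start sites on 1 strand, the upstream side lies above the downstream side in each bin.

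The mean level of the shore differed between the parental strains. It was lower in B6, with a lowest, median and highest animal of 57.0%, 57.5% and 58.1%, than in C3, where the lowest and highest were 57.7% and 59.0%. The means were 57.4% ± 0.389 and 58.6% ± 0.454 (SD, n = 6 animals each), a difference of -1.10 ± 0.244 points (SE, two-sided exact permutation p = 0.00433, 0.0260 after Benjamini-Hochberg adjustment over 6 comparisons). The ranges overlapped by the sire C3 1, the lowest C3 animal, and the sire B6 2, the highest B6 animal. The adjusted exact permutation p rose to 0.0519 when any 1 of 10 of the 12 animals was left out, the exceptions being these same 2 sires. The 4 other comparisons between roles and the comparison of the crosses gave differences between -0.0882 and 0.0637 points, with an adjusted exact permutation p of 0.974 for each. The smallest p that 6 against 6 animals allow is 0.00216.

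The strain difference was seen at each distance. B6 minus C3 was -1.21 points within 500 bp, -0.986 points from 500 to 1000 bp, -0.971 points from 1000 to 1500 bp and -1.01 points from 1500 to 2000 bp. The exact permutation p, adjusted over 6 comparisons, was 0.0519, 0.0519, 0.0260 and 0.0130 in this order. In the outermost class the ranges of the strains did not overlap, 75.3% to 76.1% in B6 and 76.2% to 76.9% in C3 (exact permutation p = 0.00216). Beside runs at 10 to 80% the shore read 69.9% ± 0.477 in B6 and 71.6% ± 0.281 in C3, and the ranges again did not overlap (-1.69 points, exact permutation p = 0.00216, adjusted 0.0130). Beside runs below 10% the difference was -0.89 points and beside runs at 80% or more -0.647 points, with overlapping ranges and an adjusted exact permutation p of 0.0779 for each. Dense windows read 12.1% ± 0.544 in B6 and 13.2% ± 0.770 in C3 (-1.11 points, exact permutation p = 0.00866, adjusted 0.0519). Distant windows read 81.3% ± 0.432 in B6 and 82.0% ± 0.380 in C3 (-0.729 points, exact permutation p = 0.0195, adjusted 0.0584). Per window, the median of B6 minus C3 was -0.649 points in the shore, -0.681 in distant windows and -0.648 over all windows tested. The median window thus shifted alike in the shore and elsewhere. F1 animals lay between the parents in the shore, at 58.0% ± 0.147 in B6C3F1 and 58.0% ± 0.278 in C3B6F1 (n = 6 each).

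The mean contrast between shore and distant DNA was smallest in dams. Distant minus shore methylation was 23.2 ± 0.346 points in dams (lowest 22.8, median 23.2, highest 23.7), 24 ± 0.386 in sires (23.6, 23.8 and 24.6), 23.9 ± 0.320 in F1 males and 23.8 ± 0.282 in F1 females (n = 6 each). Sires exceeded dams by 0.75 ± 0.212 points (exact permutation p = 0.00433, adjusted 0.0260) and dams lay below F1 females with a difference of -0.553 ± 0.182 points (exact permutation p = 0.0152, adjusted 0.0455). Sires and F1 males differed by 0.102 ± 0.205 points (adjusted exact permutation p = 0.626). The shore itself read 58.0% in sires and in dams. Distant windows read 82.0% ± 0.448 in sires and 81.3% ± 0.432 in dams (exact permutation p = 0.0325, adjusted 0.0649). This test shuffles both strains together, so the strain difference is part of its spread. Within a strain the ranges in distant windows did not overlap. B6 sires read 81.3% to 81.9% and B6 dams 80.8% to 81.0%, and C3 sires read 82.0% to 82.5% and C3 dams 81.6% to 81.8%. No test within strains was made. The step along the shore was smallest in dams as well, at 39.8 ± 0.272 points, against 40.3 ± 0.323 in sires, 40.2 ± 0.391 in F1 males and 40.3 ± 0.318 in F1 females. The differences were 0.567 ± 0.172 for sires minus dams (exact permutation p = 0.00433, adjusted 0.0260) and -0.526 ± 0.171 for dams minus F1 females (exact permutation p = 0.0130, adjusted 0.0390). The 2 comparisons share the dams and are not independent. Leaving out 1 animal raised the adjusted exact permutation p past 0.05 in 5 of 12 cases for either difference of sires and dams, to 0.0519, and in 10 of 12 cases for either difference of dams and F1 females, to at most 0.0779 for the step and 0.0909 for the contrast. With dense windows of 20 or more CpGs the adjusted exact permutation p was 0.0519 for both steps and 0.0649 for both contrasts. With 30 or more CpGs it was 0.0519 for both steps and for the contrast of dams and F1 females.

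**Figure D2:**
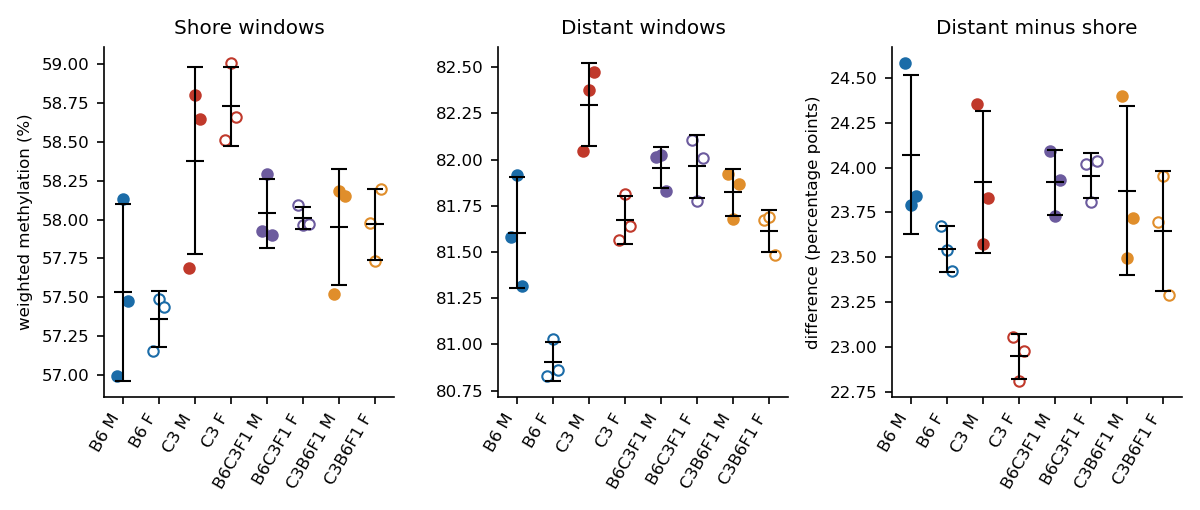
Weighted methylation (%) of shore windows and of distant windows, and their difference in percentage points, for each of the 24 animals. Filled points are males and open points females, and bars give the mean ± SD of the 3 animals of a group. The axes do not start at 0. C3 animals lie mostly above B6 animals in the shore, and the C3 dams have the smallest differences, from 22.8 to 23.1 points.

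The comparison between the strains asked where the parental genotypes differ in their shores. A window was called when its adjusted p in limma, which fits all 1456902 windows together, was below 0.05 and the groups differed by at least 20 points. Of the 66401 shore windows 530 were called, 0.798%, beside 0.494% of all windows tested, 0.453% of distant windows and 0.363% of dense windows. C3 was higher in 316 of them and B6 in 214, against 3608 and 3583 of all windows tested and 2421 and 2639 of distant windows. No animal of 1 strain overlapped the other strain in 515, but this was not counted over all windows tested, so it has no reference. The calls came from 465 dense runs. By distance, 151, 168, 131 and 80 windows were called from the nearest to the farthest 500 bp, or 0.792%, 0.926%, 0.863% and 0.571%. The median size of a called difference was 25.4 points and the median methylation of the called windows 52.7%. Of the called windows 41.7% lay within 1 kb of a start site.

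Windows between 20% and 80% methylation gave most of the calls in either class. At 40 to 60% methylation 3.12% of shore windows and 3.66% of distant windows were called between the strains. At 60 to 80% the shares were 1.34% and 0.941%, and at 20 to 40% they were 1.74% and 2.44%. The share called was thus higher in distant windows at the levels from 20 to 60% and higher in shore windows at 60 to 80%. Windows between 20% and 80% made up 39.2% of the shore and 28.8% of the distant windows.

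Called shore windows were rich in listed variants. An SNV lay in 326 of the 530, 61.5%, against 20.6% of all shore windows. The share called rose with the number of SNVs, from 0.387% of windows with 0 SNVs to 1.97% with 1 to 2, 3.36% with 3 to 5 and 4.66% with 6 or more. In distant windows the same shares were 0.178%, 1.03%, 2.04% and 2.61%. Depth moved with these calls: the ratio of C3 to B6 depth, each relative to its total, had a median of 0.790 in called shore windows and 1.03 in all shore windows, and lay below 0.5 in 19.8% and 2.17% of them. Without windows that hold an SNV 204 calls remained, and 262 calls lay in windows with a depth ratio of 0.8 or more. Distant windows and all windows tested were not counted at this depth ratio. Whether the share called is higher in the shore at like depth was therefore not tested. The part of read mapping in the other calls was not tested.

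**Figure D3:**
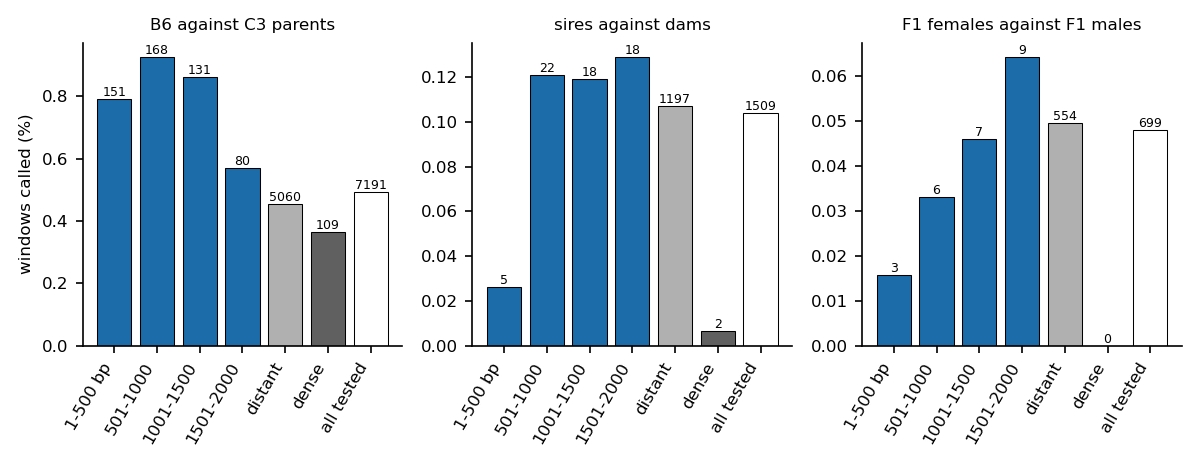
Share (%) of windows called between the groups, by distance from the dense window, for distant, dense and all tested windows, in 3 comparisons. Numbers above the bars are windows called. Between B6 and C3 the shore classes lie above the distant class, with the highest value from 500 to 1000 bp (168 windows).

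Of the 10 named windows higher in B6, 4 had no protein-coding start site within 5 kb, and the others lay in or near genes of several functions. At chr1:172969001-172969500, 500 to 1000 bp from a dense run at 0.240% and with no protein-coding start site within 5 kb, B6 animals read 69.3%, 72.0% and 73.5% (lowest, median, highest) and C3 animals 2.44%, 5.09% and 6.37%. The difference of 66.7 points was the largest of those higher in B6 among the named windows (log2 ratio 5.49 ± 0.19 SE, limma adjusted p = 2.97e-19). At chr10:8268501-8269000, also without a start site, all 14 CpGs were higher in B6, which read 91.8%, 92.2% and 94.4% against 22.9%, 27.4% and 30.1% in C3. The first window holds 3 SNVs and the second 0.

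Beside Cnot8, which encodes a deadenylase of the CCR4-NOT complex that shortens mRNA tails, the window at chr11:57916501-57917000 read 67.3%, 79.7% and 87.6% in B6 and 10.7%, 12.8% and 17.2% in C3. It lies 655 bp from the start site, on the upstream side of a dense run at 3.81%, and all 12 CpGs were higher in B6 (64.2 points, limma adjusted p = 8.88e-17). Its depth was 22 counts per CpG and animal in B6 and 10.9 in C3. In an intron of Adal, an adenosine deaminase-like enzyme, the window at chr2:120967001-120967500 read 68.8%, 73.8% and 80.7% in B6 and 12.3%, 19.3% and 28.1% in C3 (54.9 points, limma adjusted p = 2.62e-17). Depth was alike there, 29.0 and 26.2 counts per CpG.

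The other named windows higher in B6 differed by 50.9 to 62.9 points. At chr15:76551501-76552000, 603 bp from the start site of Lrrc24 and in a UTR exon of C030006K11Rik, B6 ranged from 85.9% to 91.7% and C3 from 19.7% to 35.6%. In a coding exon of Abhd16a, a lipase of phosphatidylserine, B6 ranged from 71.6% to 80.4% and C3 from 13.8% to 31.2%, at depths of 32.6 and 15.8 counts per CpG. Near Nnt, the mitochondrial transhydrogenase that makes NADPH, B6 ranged from 88.5% to 94.1% and C3 from 37.3% to 44.7%, and 5 of the 9 CpGs differed by 20 points or more. At Sft2d2, a gene of vesicle transport, an intronic window in B6 ranged from 69.7% to 79.6% and C3 from 10.4% to 39.2%. The remaining 2 windows, at chr9:88961001-88961500 and chr2:144947501-144948000, have no protein-coding start site within 5 kb and read 63.4% and 86.6% in B6 against 1.95% and 31.7% in C3.

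The largest difference of all shore windows was higher in C3. At chr17:15673001-15673500, intergenic and beside a dense run at 38.3%, B6 animals read 8.16%, 10.2% and 13.2% and C3 animals 92.4%, 93.4% and 95.3%. All 13 CpGs differed, by 68.2 to 93.0 points, the window differed by 82.9 points (log2 ratio -6.83 ± 0.17, limma adjusted p = 9.94e-23), and no SNV of the list lay in it. Its depth was 25.6 counts per CpG and animal in B6 and 15.3 in C3. At chr6:37414501-37415000 B6 ranged from 5.97% to 11.7% and C3 from 71.8% to 95.5%. At chr13:4941501-4942000 the C3 animals ranged only from 92.9% to 97.7%, whereas the B6 animals spread from 4.72% to 45.6%. None of the 3 windows has a protein-coding start site within 5 kb.

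The intronic Fam129c window at chr8:74127001-74127500 read 3.12%, 5.11% and 7.42% in B6 and 66.2%, 78.7% and 83.0% in C3 (limma adjusted p = 5.06e-19). The 5 CpGs of an intronic window of Dusp12, a dual-specificity phosphatase, read, at chr1:172813501-172814000, 14.7%, 24.5% and 30.6% in B6 and 78.9%, 93.5% and 98.1% in C3 (limma adjusted p = 3.56e-12). At Ccl27a, a chemokine known from skin, a window that holds the start site read 8.04% to 12.5% in B6 and 66.7% to 80.6% in C3. Ccl27a is known to have near-identical copies, and reads shared between copies were not measured here. These windows were unequal in depth, with 31.6 counts per CpG in B6 and 24.9 in C3 at Fam129c, 28.1 and 10.1 at Dusp12, and 29.0 and 11.9 at Ccl27a. Near Mcart1, a mitochondrial carrier, the window holds 7 SNVs and read 0.227% to 1.58% in B6 and 51.8% to 66.1% in C3. Near Hsd17b4, an enzyme of peroxisomal fatty acid oxidation, B6 ranged from 16.9% to 33.5% and C3 from 72.6% to 81.3%, with no SNV and with depths of 34.0 and 29.1 counts per CpG.

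The F1 animals were then read at these windows. They did not enter the difference between the strains, but they entered the count minimum and the shared variance of the fit by which the windows were called. The position of an F1 animal was taken as 0 at the C3 mean and 1 at the B6 mean and averaged over the 530 windows. It ranged from 0.585 to 0.616 in the 12 F1 animals, with a mean of 0.599 ± 0.00953 (SD), above the midpoint of 0.5 in 12 of 12 (two-sided exact sign-flip permutation p = 0.000488, the smallest that 12 animals allow). The same parental means serve all 12 animals. This test and those of the position by depth below therefore measure only the spread among F1 animals and leave out the error of the parental means. B6C3F1 animals averaged 0.605 ± 0.00833 and C3B6F1 animals 0.594 ± 0.00821, a difference of 0.0103 (exact permutation p = 0.0649). For windows higher in B6 the mean was 0.626 and for windows higher in C3 0.581, so that F1 animals lay nearer to B6 in either direction. In 449 windows, 84.7%, the mean position lay between 0.25 and 0.75.

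The F1 position moved with the depth of the parents. Over 162 windows with a C3 to B6 depth ratio below 0.6 it was 0.705 ± 0.0156, over 106 windows at 0.6 to 0.8 it was 0.610 ± 0.0190, and over 142 windows at 0.8 to 1 it was 0.555 ± 0.0189. Over the 120 windows at 1 or more it was 0.500 ± 0.0146 (exact sign-flip permutation p = 0.994). Without windows that hold an SNV the position was 0.561 ± 0.0177, and over the 71 of these with a ratio of 1 or more it was 0.472 ± 0.0292 (exact sign-flip permutation p = 0.0103), on the C3 side of the midpoint. An F1 animal carries both alleles and its reads are pooled in each count, so a lower yield of C3 reads and a B6-like allele would both move it toward 1 and cannot be told apart here.

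Some windows lay close to 1 parent in the F1 animals. At chr2:161337001-161337500, without a start site within 5 kb, B6 read 30.1% ± 7.60 and C3 92.8% ± 3.1, and the hybrids read 90.8% ± 0.983 in B6C3F1 and 92.8% ± 2.31 in C3B6F1 (n = 6 each), a position of 0.0158. Beside Rab6b, a small GTPase of Golgi transport, the window at chr9:103010501-103011000 read 29.7% ± 5.40 in B6 and 92.6% ± 1.84 in C3, whereas B6C3F1 read 89.4% ± 3.79 and C3B6F1 read 91.7% ± 1.49, a position of 0.0334. The next Rab6b window, at chr9:103011501-103012000, had a position of 0.0634. The depths of B6 and C3 were alike, 30.3 and 28.4 counts per CpG and animal at chr2:161337001-161337500 and 17.8 and 17.3 at chr9:103010501-103011000, and no listed SNV lay in the 3 windows. In the other direction the window at chr2:144947501-144948000 was at 86.6% in B6 and 31.7% in C3, whereas B6C3F1 read 79.99% and C3B6F1 read 78.8%, a position of 0.869. A window 81 bp from the start site of Arap1 read 4.71% in B6 and 47.9% in C3, with hybrids at 9.37% (B6C3F1) and 10.5% (C3B6F1). The Arap1 window holds 3 SNVs and the window at chr2:144947501-144948000 holds 0. Depths are not given for these windows near B6, so a lower yield of C3 reads was not looked at there. These windows were picked as the most extreme positions after the values were seen, so they carry no test.

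**Figure D4:**
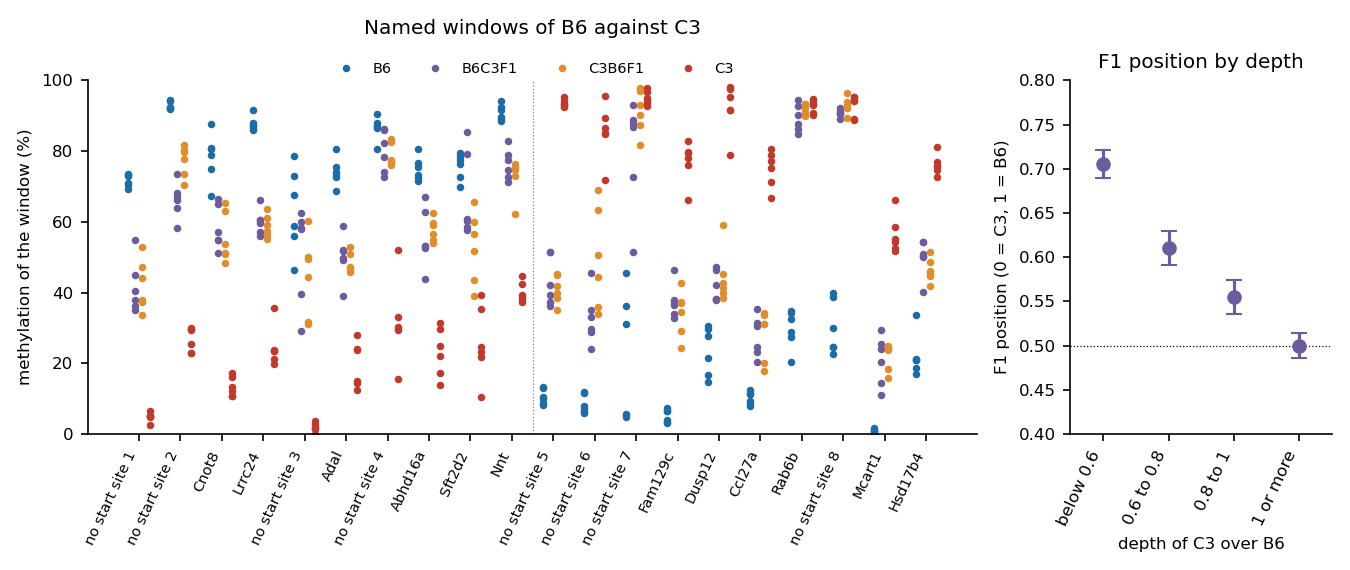
Left, methylation (%) of the 20 named windows of the B6 and C3 comparison in each animal, with the windows higher in B6 to the left of the dotted line. Windows with no protein-coding start site within 5 kb are numbered. Right, mean F1 position (0 at C3, 1 at B6) of the called windows by the depth of C3 over B6, with bars of 1 SD over 12 F1 animals. The position declines from 0.705 to 0.500, and at Rab6b and the no start site window 8 the hybrids lie with C3.

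Sires and dams differed in 63 shore windows, 0.0949%, beside 0.104% of all windows tested and 0.107% of distant windows. Dams were higher in 39 and sires in 24, against 989 and 520 over all windows tested. In 50 the groups did not overlap, which was not counted over all windows tested. The calls were few next to the dense window: 5 within 500 bp (0.0262%), 22 from 500 to 1000 bp (0.121%), 18 from 1000 to 1500 bp (0.119%) and 18 from 1500 to 2000 bp (0.129%). At 40 to 60% methylation 0.36% of shore windows and 1.03% of distant windows were called, and at 60 to 80% the shares were 0.248% and 0.213%. An SNV lay in 8 of the 63, 12.7%, against 20.6% of all shore windows. Of the calls 50 lay beside dense runs below 10%, as did 50793 of the 66401 shore windows. Within 1 kb of a start site lay 10 of the calls, against 35.5% of all shore windows.

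The leading windows higher in dams lay in Elovl3 and Cyp2u1. In the window at chr19:46208501-46209000, in a coding exon of Elovl3, an elongase of very long chain fatty acids, sires read 26.7%, 30.8% and 39.1% (lowest, median, highest) and dams 74.6%, 77.7% and 84.8%. F1 males read 27.0%, 39.1% and 42.7% and F1 females 67.7%, 76.4% and 83.0%. Each male was therefore below each female in both generations. The difference between sires and dams was 46.9 points (log2 ratio -2.97 ± 0.17, limma adjusted p = 3.27e-13), and 13 of the 14 CpGs differed by 20 points or more. In an intron of Cyp2u1, a cytochrome P450 that hydroxylates fatty acids, the window at chr3:131004001-131004500 read 31.3%, 40.8% and 61.1% in sires and 83.0%, 84.8% and 89.5% in dams (41.5 points, limma adjusted p = 1.28e-11). It read 27.8%, 41.8% and 46.4% in F1 males and 73.0%, 81.8% and 84.3% in F1 females.

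The same arrangement of the sexes was seen at 3 further named windows. At Arhgap42 sires averaged 27.0% ± 6.14, dams 63.7% ± 7.27, F1 males 29.7% ± 7.51 and F1 females 55.5% ± 5.94 (n = 6 each). In Cabyr, a calcium-binding protein known from sperm, a window that also overlaps an exon of the pseudogene Gm7599 averaged 40.4% ± 4.43, 78.1% ± 3.81, 43.6% ± 4.59 and 74.0% ± 3.77 in the same order. At an intronic window of Mn1, a transcriptional coregulator, the averages were 55.0% ± 15.4, 87.7% ± 3.72, 57.2% ± 6.99 and 75.9% ± 3.53. The sires were the most variable group at Mn1, from 36.1% to 71.4%.

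The windows higher in sires looked different. Upstream of Ube2f, an enzyme that conjugates NEDD8, the window at chr1:93145001-93145500 read 70.7%, 84.4% and 89.7% in sires and 36.2%, 50.6% and 52.3% in dams (36.1 points, limma adjusted p = 9.18e-11). F1 males read 74.8%, 81.6% and 83.9% and F1 females 84.8%, 86.8% and 89.5%. The dams thus stood apart from the 3 other groups, and F1 females lay above F1 males. In a coding exon of Pdk1, a kinase that inhibits pyruvate dehydrogenase, sires averaged 69.8% ± 7.17, dams 37.5% ± 10.3, F1 males 67.8% ± 4.12 and F1 females 58.6% ± 3.94. For the zinc finger gene Zfp292 the averages were 85.0% ± 5.13, 53.6% ± 4.57, 83.8% ± 2.41 and 71.2% ± 5.13. Near Mt1, a metallothionein that binds zinc and copper, they were 75.9% ± 5.77, 47.6% ± 4.95, 77.4% ± 6.11 and 63.2% ± 7.15. At these 3 windows the F1 females lay between dams and males. In a UTR exon of Fam84b, in contrast, F1 females (24% ± 4.72) were near dams (22.7% ± 4.56) and F1 males (45.7% ± 6.38) near sires (54.0% ± 8.11).

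**Figure D5:**
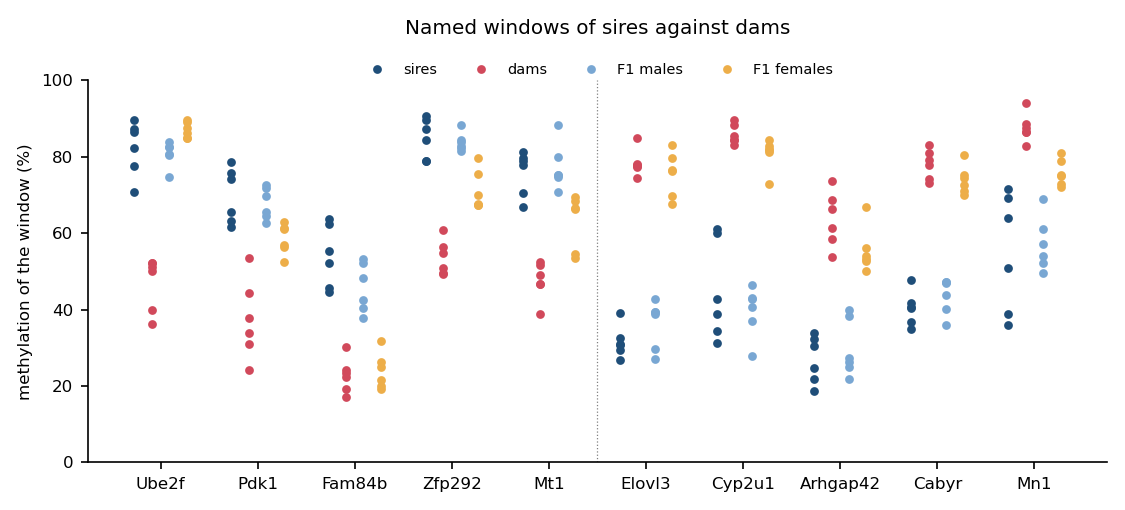
Methylation (%) of the 10 named windows of sires against dams in each of the 24 animals, with windows higher in sires to the left of the dotted line. Points are animals. To the right F1 females lie with dams and F1 males with sires, while at Ube2f, Pdk1, Zfp292 and Mt1 the dams have the lowest mean of the 4 groups.

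The F1 animals were read at each of the 63 windows. Their values did not enter the difference of sires and dams, but they entered the count minimum and the variance that the fit of all groups shares. The males and females of the F1 differed in the same direction as sires and dams in 61 of the 63, and in 38 the difference also had a limma adjusted p below 0.05. Among the 39 windows higher in dams, 39 had the same direction in the F1, 31 with an adjusted p below 0.05, and the median F1 difference was 19.3 points against 24.1 points in the parents. Among the 24 higher in sires, 22 had the same direction, 7 with an adjusted p below 0.05, and the medians were 8.64 and 21.7 points. A call selects large differences, so a smaller value in the animals that were not used for it is not by itself a difference between parents and F1. The agreement of parents and F1 was not counted for windows called outside the shore, so it cannot be read as particular to shores.

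Between F1 females and F1 males 25 shore windows were called, 0.0377%, beside 0.048% of all windows tested. Females were higher in 22 and males in 3, against 646 and 53 over all windows tested. In 24 the groups did not overlap, again without a count over all windows tested. With distance the calls numbered 3, 6, 7 and 9. Of the 25, 20 were called in the same direction between sires and dams, which is 80% of the calls in the F1 and 31.7% of the 63 in the parents. This sharing of calls was not counted over all windows tested. Cyp2u1 (41.4 points) and Elovl3 (40.01 points) led the F1 females. The next Cabyr window, at chr18:12901001-12901500, averaged 82.5% ± 2.82 in F1 females and 49.3% ± 4.72 in F1 males. Near Mbd2, which encodes a protein that binds methylated CpGs, the averages were 85.0% ± 3.11 and 58.6% ± 6.45, and at chr15:95579501-95580000, with no start site within 5 kb, they were 72.2% ± 5.32 and 42.6% ± 5.70.

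Of the 3 windows higher in F1 males, 2 belong to genes of prolactin and cytokine signalling. In an intron of Prlr, the prolactin receptor, F1 males read 35.4%, 43.2% and 47.5% and F1 females 15.5%, 22.9% and 25.2% (limma adjusted p = 5.14e-06), and sires averaged 41.3% ± 5.86 and dams 18.9% ± 5.0. The Prlr difference came from 2 of its 5 CpGs, and the median CpG differed by 3.02 points. At Socs3, an inhibitor of cytokine receptor signalling, F1 males averaged 55.8% ± 3.47 and F1 females 36.3% ± 4.97 (limma adjusted p = 0.000155), while sires averaged 48.4% ± 6.58 and dams 42.9% ± 4.41, a parental difference of 5.78 points with a limma adjusted p of 0.479. The third was the Fam84b window, with a difference of 21.3 points. With counts thinned to the shallowest animal F1 females minus F1 males was -19.8 points at Prlr and -19.2 points at Fam84b, under the minimum of 20. Without 1 animal it was also under this minimum at Prlr (B6C3F1 female 3) and at Socs3 (B6C3F1 male 2, B6C3F1 female 1 or C3B6F1 female 2), at -19.7 points for Prlr and between -19.9 and -19.1 points for Socs3.

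Dams and F1 females, the bred and the virgin females, differed in 10 shore windows, 0.0151%, beside 0.0189% of all windows tested. Dams were lower in 10 of 10, against 269 of 276 over all windows tested. The Ube2f window led with 40.3 points (limma adjusted p = 1.43e-11). Within an intron of Tcf3, the gene of the E-protein transcription factors, 4426 bp from the start site of Uqcr11, dams read 44.1%, 65.8% and 82.7% and F1 females 91.0%, 91.9% and 92.5%. The dams were split by strain there, with B6 dams from 44.1% to 56.4% and C3 dams from 75.3% to 82.7%. The difference of sires and dams was not called as different between the strains at this window. Near Samm50, a component of the mitochondrial sorting and assembly machinery, dams averaged 60.3% ± 7.95 and F1 females 81.3% ± 3.02, with sires at 86.2% ± 2.70 and F1 males at 87.0% ± 2.78. Without any 1 of the C3 dams 1, 2 and 3 or the B6C3F1 females 1 and 3 the Samm50 difference was smaller than the minimum of 20 points, the smallest being -18.9 points. At chr14:25599501-25600000 and chr15:88666501-88667000, without start sites within 5 kb, dams averaged 57.7% ± 7.83 and 44.1% ± 3.8 and F1 females 81.8% ± 7.03 and 68.4% ± 3.43. The dams are of the parental strains and the F1 females are hybrids, so breeding and hybrid genotype cannot be told apart in this comparison alone.

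Sires and F1 males share sex and differ in genotype and breeding. Between them 3 shore windows were called, 0.00452%, beside 0.0011% of all windows tested, with F1 males higher in each and with overlapping groups in each. The count was 0 with dense windows of 30 or more CpGs and 1 with windows shifted by 250 nt. They are the windows at chr2:161337001-161337500, near Rab6b and at chr2:144947501-144948000 described above, at which the hybrids lay close to the more methylated parent. The first 2 are also among the 10 called between dams and F1 females.

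Whether the difference of males and females was the same in parents and F1 was tested as an interaction. It differed in 6 shore windows, 0.00904%, beside 0.0187% of all windows tested, and the males exceeded the females by more in the parents in 6 of 6, against 267 of 273 over all windows tested. Ube2f held 2 adjacent ones. Its outer window gave 36.1 points for sires minus dams and -6.28 points for F1 males minus F1 females (limma adjusted p = 2.44e-08), and its inner window at chr1:93145501-93146000 gave 18.1 and -3.16 points (limma adjusted p = 0.0199). The Pdk1 window gave 33.2 and 9.88 points (limma adjusted p = 0.0247) and the Tcf3 intron window 26.2 and 1.01 points (limma adjusted p = 0.0100). Near Fgd6, an exchange factor of the GTPase Cdc42, the values were 12.5 and -11.2 points (limma adjusted p = 0.00315), with dams at 25.9% ± 5.17, sires at 41.0% ± 6.38, F1 females at 45.1% ± 2.46 and F1 males at 33.8% ± 6.22. Near Hspa12a, an Hsp70 relative, they were 15.4 and -5.16 points (limma adjusted p = 0.00437). The difference of sires and dams did not pass the threshold as different between B6 and C3 in any shore window: limma called 0, and the quasi-binomial model 0. In limma 3993 of 66401 shore windows had an unadjusted p below 0.05, beside 78938 of all 1456902 windows tested. Over all windows tested 0.00151% were called.

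The reciprocal crosses differed in 1 shore window, 0.00151%, beside 0.000755% of all windows tested. It lies at chr2:152512001-152512500 in an exon of H13, which encodes the signal peptide peptidase, 384 bp from the start of Mcts2, an imprinted retrogene within H13 that is expressed from the paternal copy. B6C3F1 animals read 87.6%, 92.7% and 93.7% and C3B6F1 animals 58.0%, 62.6% and 69.6% (29.0 points, limma adjusted p = 1.61e-08). The parents lay between the crosses, at 76.1% ± 1.28 in B6 and 84.7% ± 5.39 in C3. All 13 CpGs were higher in B6C3F1, 8 of them by 20 points or more. The window holds 3 SNVs and flanks a dense run at 48.1%.

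Lists of genes with shore windows were read for their level and their calls. The 635 windows of 117 developmental transcription factor genes were the least methylated, with a mean of 25.0% and a median of 13.4%. The 165 windows of 33 hepatocyte transcription factor genes averaged 33.3%, the 87 of 16 clock genes 37.5%, the 77 of 20 genes of glucose and nitrogen metabolism 38.9% and the 198 of 45 lipid and cholesterol genes 40.2%. The 106 windows of 28 housekeeping genes averaged 41.9% and the 136 of 30 genes of growth hormone and prolactin signalling 46.0%. Markers of other liver cell types (60 windows of 15 genes) averaged 54.2%, the DNA methylation machinery (135 of 27) 57.9%, cell cycle genes (146 of 38) 58.8% and imprinted genes (169 of 41) 59.7%. The mean over all shore windows was 60.5%, but these need not lie within 5 kb of a start site, as the listed windows do. Those beside dense runs at 80% or more, with a mean of 86.1%, had a median distance of 31223 bp to a start site. The lists and the whole shore are thus unlike sets.

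Few windows of these lists were called. For B6 minus C3 the medians of the lists ranged from -1.61 points (markers of other liver cell types) to 1.1 points (lipid and cholesterol genes), beside -0.649 points over all shore windows. The medians of the lipid and cholesterol, clock, hepatocyte transcription factor, growth hormone and prolactin, and glucose and nitrogen lists lay above 0. The lists held 1 called window each higher in B6 at Ube3a, an imprinted ubiquitin ligase (20.3 points), at Nkx2-2, a developmental factor (21.2 points), at Srebf1, a lipogenic transcription factor (25.2 points), and at Pdk2, a kinase of pyruvate dehydrogenase (21.1 points). B6 minus C3 was -27.2 points at Nkx6-2 and -20.2 points at Dlx3, also developmental factors, -21.0 points at the chaperone gene Hsp90ab1 and -22.6 points at E2f2, a factor of the cell cycle. Of the 87 windows of clock genes, 2 were higher in B6, at Bhlhe40 (20.2 points) and at the nuclear receptor gene Rora (23.3 points), and 2 were higher in C3, at Arntl (-30.3 points) and Dbp (-23.5 points). The share called was 0.798% over all shore windows and 0.494% over all windows tested. The Rora window is also the 1 called window of the hepatocyte transcription factor list. No window of the other liver cell types, of the DNA methylation machinery or of growth hormone and prolactin signalling was called between the strains, and at the 0.798% called over all shore windows lists of 60, 135 and 136 windows hold few calls. The largest differences there were -16.5 points at Reln, -14.5 points at Hells and 11.5 points at Insr.

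Between sires and dams few windows of the lists were called. Prlr was 21.3 points higher in sires, Ppard, a nuclear receptor of fatty acids, 21.1 points higher in sires and Pnpla3, a lipase of lipid droplets, 24.9 points higher in sires. At Rora 2 windows were higher in dams, with sires minus dams at -20.9 and -20.8 points, and the F1 females exceeded the F1 males there by 19.3 and 14.7 points. These 2 windows stand in both the clock and the hepatocyte transcription factor lists, and with Ppard they are the 3 called windows of the latter. At Mbd2 sires minus dams was -26.9 points. At Pnpla3 F1 females minus F1 males was -9.82 points, and dams lay below F1 females with a difference of -14.2 points (limma adjusted p = 0.000942). The lists of developmental, imprinted, housekeeping, cell cycle and glucose genes and of other liver cell types held 0 windows called between sires and dams, at a share of 0.0949% over all shore windows that leaves few calls for lists of this size.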

How the data were processed

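Liver DNA of 24 mice (8 groups of 3) was read by whole-genome bisulfite sequencing. The deposited tables give, per CpG and animal, counts of methylated and of unmethylated reads, which the authors obtained with CASAVA 1.8.2 and Bismark 0.7.8 on Bowtie 0.12.8 against mm9 per the submitters' processing notes, removing duplicates with the tool of Bismark and keeping CpGs present in the reference and in both strains. All 48 columns of counts were used. The ChIP-seq samples of the series are not analysed here. The caller behind the SNV list is not given in the sources used here.

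Counts were summed over fixed 500 bp windows. Windows with at least 5 CpGs and 30 counts in every animal were fitted together in limma 3.58.1 (R 4.3.3) on log2((methylated + 1)/(unmethylated + 1)), with a mean for each of the 8 groups and trended, robust variances, and p-values were Benjamini-Hochberg adjusted over all 1456902 windows. A call needed an adjusted p below 0.05 and 20 points of weighted methylation. Values per animal were tested with permutation tests (Python 3.11.15, scipy 1.17.1). Nothing in the labels says how the replicates were taken beyond being separate animals, and replicate numbers were not taken to pair animals. Deviations of animals with the same number correlated with a mean r of 0.00542 (highest 0.0740) over 84 pairs of animals of different groups. Over 168 pairs with different numbers the mean was -0.00271 (highest 0.0200). The pairs pool all groups, so this check cannot exclude that the numbers follow families. It also reads single windows, whereas values per animal did follow the numbers. Animal 1 had the largest step along the shore in every group but the C3B6F1 females. In C3B6F1 males 1, 2 and 3, for example, the step was 40.8, 40.0 and 39.7 points. In each parental group animal 1 had the lowest and animal 2 the highest shore mean. The permutation tests took no account of the numbers, and the source of this order was not tested. Windows were named, up to 10 per direction between the strains and up to 5 otherwise, by the largest difference among called windows without overlap of the groups, with 10 counts per CpG and animal in both groups and 1 window per dense run. Genes are those with the nearest protein-coding start site within 5 kb. The members and lists were chosen with earlier results of these data known. The region callers of the study were not run. Alternatives were count minima, pseudocounts, scales, a quasi-binomial model, thinning, shifted windows, other definitions of dense windows, unweighted means, a replicate block and leaving out each animal. A count is of reads, so precision in a window is limited by depth, and intervals between animals include it.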

Additional observations from a re-analysis of the deposited data

Results flagged for a closer look

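In the groups of 6 animals behind the reported means and named windows, 1 animal stood farther from the others than Dixon's 95% limit in 12 of 148 groups, and chance alone does this in about 1 in 20 groups. The sire C3 1 read 35.5% within 500 bp of the dense window, against 36.7% to 37.3% in the other C3 animals, and 58.6% from 500 to 1000 bp, against 59.5% to 59.8%. The sire B6 2 read 72.5% from 1000 to 1500 bp, against 71.8% to 71.9% in the other B6 animals, and 76.1% from 1500 to 2000 bp, against 75.3% to 75.6%. These 2 sires are the animals by which the strains overlap in mean shore methylation. The sire B6 1 had a difference of distant and shore methylation of 24.6 points, against 23.4 to 23.8 points in the other B6 animals.

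At the named windows, the dam C3 3 read 2.44% at chr1:172969001-172969500 (other C3 animals 4.95% to 6.37%). Near Lrrc24 the sire B6 3 read 91.7% (others 85.9% to 88.0%) and the sire C3 3 read 35.6% (others 19.7% to 23.8%). In Dusp12 the sire C3 1 read 78.9% (others 91.5% to 98.1%), and near Hsd17b4 the dam B6 1 read 33.5% (others 16.9% to 21.2%). In Elovl3 the dam C3 1 read 84.8% (other dams 74.6% to 78.2%), and in Cyp2u1 the C3B6F1 female 1 read 73.0% (other F1 females 81.3% to 84.3%). At these windows none of these animals crossed into the range of the opposing group.

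The difference of males and females was not the same in parents and F1 at 6 windows by the interaction in limma. The difference of the 2 differences was 42.1 points at the outer Ube2f window, 21.3 points at the inner one, 23.2 points at Pdk1, 23.8 points in the Tcf3 intron, 25.8 points near Fgd6 and 21.1 points near Hspa12a.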

How the results depend on the processing

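The pseudocount of 5, the arcsine scale and the replicate block gave 530, 1, 63, 10, 3 and 25 called shore windows in the 6 comparisons and 0 and 6 in the interactions of strains and of parents with F1, the same windows as reported, and the quasi-binomial model added 1 to the last. Differences in points are the same numbers in these settings, so the minimum of 20 points decided the calls. A minimum of 10 points gave 2862 windows between the strains, 4 between the crosses, 426 between sires and dams, 86 between dams and F1 females, 8 between sires and F1 males, 159 between F1 females and F1 males, and 1 and 23 in the interactions. At least 100 counts left 44571 of the 66401 shore windows and gave 229 called between the strains, against 530. These calls thus fell by a larger share than the windows did. The same minimum gave 38 between sires and dams and 3 in the interaction of parents with F1. Dense windows of 20 or more CpGs gave 17 between dams and F1 females, 41 between F1 females and F1 males and 1 and 13 in the interactions, and those of 30 or more gave 6 between dams and F1 females and 0 between sires and F1 males. Windows shifted by 250 nt gave 1 between sires and F1 males and 11 in the interaction of parents with F1. Chosen after seeing the data, windows without an SNV gave 204 and windows with a C3 depth of 0.8 or more of that of B6 gave 262 between the strains, and the F1 position was 0.500 where C3 depth was at or above that of B6.

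Differences of mean shore methylation that were near 0 changed sign. Sires minus dams became 0.0496 points and dams minus F1 females -0.0383 points with dense windows of 20 or more CpGs, and 0.0226 and -0.183 points as unweighted means. F1 females minus F1 males became 0.00301 points with 30 or more CpGs, 0.00139 points with gaps of up to 2 kb and 0.169 points unweighted, and sires minus F1 males 0.00813 points unweighted. The step of B6 minus C3 became -0.0528 points unweighted and -0.0488 points with 30 or more CpGs.

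Without 1 animal at a time the counts ranged from 526 to 554, 1 to 2, 55 to 65, 8 to 13, 2 to 3 and 21 to 30 in the 6 comparisons, and from 0 to 1 and 4 to 9 in the interactions. The mean shore difference ranged from -1.28 to -1.01 points for B6 minus C3, from -0.0244 to 0.110 for the crosses, from -0.266 to 0.104 for sires minus dams, from -0.138 to 0.232 for dams minus F1 females, from -0.209 to 0.152 for sires minus F1 males and from -0.101 to 0.0532 for F1 females minus F1 males. The step of sires minus dams ranged from 0.469 to 0.627 points and that of dams minus F1 females from -0.631 to -0.434. Of 1305 values of the 44 named windows under alternatives, 1294 were called in the same direction, 11 were no longer called, at Samm50, Prlr, Fam84b and Socs3, and 0 reversed.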
